A study of Mus musculus with 20 samples.

Results

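Receptor tyrosine kinases that carry growth factor signals into bladder tumour cells and their stroma were followed across normal bladders, Cre-induced bladder tumours, treated bladders and metastases of mice. The 10 genes are the FGF receptors Fgfr1, Fgfr2 and Fgfr3, the ErbB receptors Egfr, Erbb2 and Erbb3, the hepatocyte growth factor receptor Met, the insulin-like growth factor receptor Igf1r, and the PDGF receptors Pdgfra and Pdgfrb. They were taken from a list of symbols, each from an array row (a probe set) that the platform annotation assigns to exactly 1 gene. Of the 10, 9 were measured, each by 1 row, among 30142 genes in all. Pdgfra has a single row, which the annotation assigns to Pdgfra and the microRNA gene Mir7025 together, so it gave no value.

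All groups were CKO mice of the FVB/N strain, which carry floxed alleles, that of Rb among them, and lack p107 (p107-/-). Normal bladder (5 arrays) came from such mice with no inoculation named, tumour bladder (7) after a Cre recombinase adenovirus was put into the bladder, and metastasis (4) from these mice, at a site that the labels do not give. Treated bladder (3) came from mice given palbociclib, an inhibitor of Cdk4 and Cdk6, at 150 mg/kg daily for 28 days into the peritoneum, with the platinum drug CDDP at 6 mg/kg once a week. A further array is titled as a palbociclib metastasis, called palbo metastasis below, and its other labels say only metastasis. Which cells of the bladder the adenovirus entered is not given, and neither are age and sex. The labels do not state whether arrays are of separate animals, so p-values measure only the spread between these samples, which may be technical.

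A receptor tyrosine kinase binds a ligand outside the cell, pairs with another receptor and phosphorylates tyrosines on itself, which recruits adaptors and starts Ras-MAPK and PI3K signalling. In the bladder, Fgfr3 and Erbb2 are known as receptors of the urothelium that are activated in subsets of human urothelial cancers, and Egfr is carried by basal urothelial cells. Fgfr1 and the PDGF receptors are known from mesenchymal cells as well, and Met and Igf1r from both epithelium and stroma.

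The promoter sequences below are those of Fgfr2, of 3 receptors whose levels went with it over part of the arrays (Fgfr3, Erbb2 and Igf1r) and, for contrast, of Egfr. They are the 250 bases before the start that the RefSeq table gives on GRCm38.p6, 5′ to 3′ on the gene's strand, and capitals mark the GC box GGGCGG, or CCGCCC where it lies on the other strand. RefSeq windows were at hand for 7 of the 10 genes, 2 of them for Fgfr3, of which the first is shown.
Fgfr3, chr5:33721474-33721723, plus strand: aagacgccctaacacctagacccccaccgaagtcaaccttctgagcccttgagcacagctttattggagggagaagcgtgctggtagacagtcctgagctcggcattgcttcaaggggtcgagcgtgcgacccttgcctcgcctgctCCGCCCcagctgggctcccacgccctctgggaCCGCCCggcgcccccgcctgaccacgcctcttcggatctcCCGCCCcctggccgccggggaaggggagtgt
Fgfr2, chr7:130266809-130267058, minus strand: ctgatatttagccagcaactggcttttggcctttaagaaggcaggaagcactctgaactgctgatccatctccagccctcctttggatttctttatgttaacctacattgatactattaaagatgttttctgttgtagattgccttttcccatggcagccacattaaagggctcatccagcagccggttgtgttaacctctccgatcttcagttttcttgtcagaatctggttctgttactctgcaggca
Erbb2, chr11:98412234-98412483, plus strand: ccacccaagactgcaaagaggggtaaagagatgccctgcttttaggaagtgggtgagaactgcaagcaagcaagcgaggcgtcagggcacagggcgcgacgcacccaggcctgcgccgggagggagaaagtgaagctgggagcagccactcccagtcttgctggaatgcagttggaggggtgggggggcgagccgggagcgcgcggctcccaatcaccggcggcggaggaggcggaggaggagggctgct
Igf1r, chr7:67952007-67952256, plus strand: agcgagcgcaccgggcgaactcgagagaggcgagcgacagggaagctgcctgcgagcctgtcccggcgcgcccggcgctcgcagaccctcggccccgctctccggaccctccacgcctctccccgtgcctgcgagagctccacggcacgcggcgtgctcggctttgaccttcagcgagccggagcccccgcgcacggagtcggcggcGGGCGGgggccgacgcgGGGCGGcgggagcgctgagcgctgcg
Egfr, chr11:16751953-16752202, plus strand: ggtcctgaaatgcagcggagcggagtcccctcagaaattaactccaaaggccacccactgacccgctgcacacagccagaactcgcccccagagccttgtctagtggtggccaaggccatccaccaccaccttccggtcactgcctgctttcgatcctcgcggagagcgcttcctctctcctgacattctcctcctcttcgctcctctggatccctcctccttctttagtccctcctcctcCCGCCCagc
All motifs were read on both strands. The Fgfr3 window held 3 GC boxes, Igf1r 2, Egfr 1, and Fgfr2 and Erbb2 0. Over 32851 such windows of all genes, 32.7% held a GC box and 16.7% held 2 or more. A TATA box, read as TATAAA, was found in none of these windows (12.4% of all). A CCAAT box, whose reverse can share its last letters with a GC box, stood in those of Fgfr3 and Erbb2 (33.8% of all). The Fgfr2 window was 44.0% G and C with 2 CpG pairs, below the median of 52.4% and 6 CpG over all windows. The other 4 lay between 60.8% (Egfr) and 77.6% (Igf1r), with 11 to 42 CpG. A match of letters is a description of the window only.

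On 8 arrays, here called the flat arrays, the deviations from the mean of each row resembled no other array (highest correlation across rows 0.210, against 0.260 or higher for each of the other 12), while rows of low level scattered more (SD 0.336 to 0.367). They comprise normal bladders 4 to 6, tumour bladders 3 to 5 and both of the last metastases, 3 and 4, a choice made after their values were seen. The labelled tissue showed the same division: the uroplakin gene Upk1a, a marker of luminal urothelium, lay between 7.51 and 8.60 on the flat arrays, and on the 12 others at 11.01 and 12.28 on normal bladders, 5.48 to 14.2 on tumour bladders, 9.20 to 10.9 on treated bladders and 5.46 and 6.00 on metastases. All 9 receptors spread less over the flat arrays, with a median SD of 0.155 against 0.451 over the 12, where the medians over all genes were 0.252 and 0.265 and 50.2% of genes spread less. No receptor had its highest or lowest value on a flat array (59.5% of all genes did). The flat arrays were chosen in part because rows of low level scatter more on them. By mean level the receptors stood at the 58.7 (Fgfr3) to 92.1 percentile (Fgfr1) of all genes. These shares over all genes are thus tilted by that choice and are not those of genes of like level. The same limit holds for the shares given below of genes highest or lowest on a single array. Normal bladders 1 and 2, which alone stand for normal tissue among the 12, had the female transcript Xist at 11.74 and 11.71. The 12 arrays' tumour bladders and metastases reached 5.87 at most, so that by Xist sex and group cannot be told apart there. The Y-linked gene Eif2s3y was at 4.695 and 4.756 on these normal bladders, but also at 4.655 on tumour bladder 6. It was at 5.586 to 6.434 on the other tumour bladders and metastases of the 12, so the sex of tumour bladder 6 is not settled by these genes. Differences below are over all arrays, with values over the 12 or over the 8 beside many of them.

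Compared with the other groups, metastases had the lowest group means of Fgfr2, Fgfr3, Erbb2, Met and Igf1r and the highest of Fgfr1, Egfr and Pdgfrb among the 4 groups with replicates, Egfr by a margin of 0.002 only, but no receptor passed the test in any of the 5 comparisons. The difference farthest from 0 was that of Igf1r, with metastasis minus normal at -0.51 on the log2 scale. By limma with Benjamini-Hochberg adjustment over 30142 genes, 0 of 9 receptors and 0% of genes (0 of 30142) passed at an adjusted p under 0.05 in any comparison. The smallest adjusted p was 0.998 in tumour against normal, 1 where treated bladders were set against tumour or normal ones, 0.207 in metastasis against tumour and 0.528 in metastasis against normal. At an unadjusted p under 0.05 there were 0 receptors in tumour against normal (4.25% of genes, 1281) and 0 in metastasis against tumour (5.79%, 1745). Treated bladders gave 0 against tumour (0.342%, 103) and 0 against normal (0.358%, 108). Metastasis against normal gave 2, Igf1r and Fgfr3 (6.91%, 2082). The groups did not overlap for 0 receptors in tumour against normal (0.166% of genes), 0 in treated against tumour (0.129%), 0 in metastasis against tumour (0.504%) and 0 in treated against normal (0.65%). In metastasis against normal they did not overlap for 1, Igf1r (2.85% of genes). Comparisons with the same reference group share its arrays, so their values are set side by side only.

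**Figure D1:**
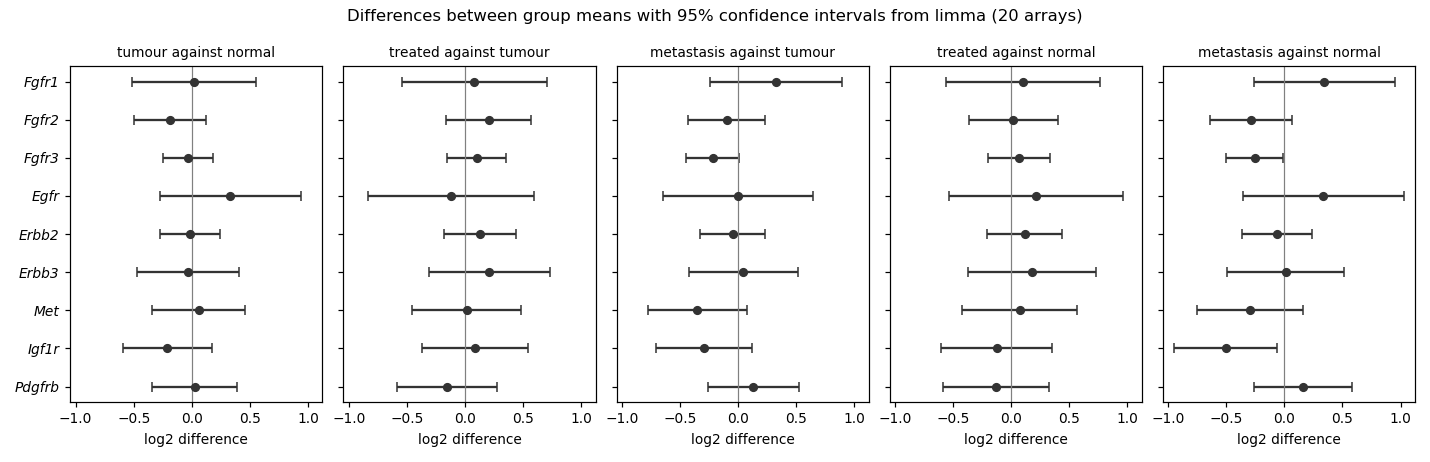
Log2 difference between group means (x axis, first-named group minus second) for each receptor (y axis) in the 5 comparisons, from limma over all 20 arrays; bars are 95% confidence intervals. Only the intervals of Fgfr3 and Igf1r in metastasis against normal leave out 0, ending at -0.009 and -0.063, and no difference passed after adjustment.

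Fgfr3, the FGF receptor best known from urothelial tumours, was at 5.73, 5.80, 5.46, 5.75 and 5.60 in normal bladders 1, 2, 4, 5 and 6. Tumour bladders ran from 5.41 (bladder 5) over a median of 5.63 to 5.85 (bladder 1), and treated bladders were at 5.70, 5.63 and 5.87. Metastases were at 5.30, 5.33, 5.64 and 5.39, and the palbo metastasis was at 5.30. The 2 metastases outside the flat arrays and the palbo metastasis were the 3 lowest of the 20, and metastasis 3 lay inside the range of every bladder group.

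By group mean, Fgfr3 ran from treated bladder (5.74 ± 0.12, SD, n = 3) over normal bladder (5.67 ± 0.14, SD, n = 5) and tumour bladder (5.63 ± 0.19, SD, n = 7) to metastasis (5.41 ± 0.15, SD, n = 4). The 3 bladder groups differed by less than their SDs. Metastasis minus normal was -0.255 on the log2 scale (95% interval -0.502 to -0.009, adjusted p 0.721), with 0 of 4 metastases above the normal mean. Metastasis minus tumour was -0.219 (-0.450 to 0.011, adjusted p 0.861), with 1 of 4 above the tumour mean. Over the 12 arrays these differences were -0.45 and -0.34, and over the 8 flat arrays -0.09 and -0.09. None of these passed.

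Fgfr2, which in its epithelial form answers FGF ligands made by the stroma, was at 6.54, 6.39, 6.10, 6.16 and 6.35 in normal bladders and ran from 5.79 (bladder 2) over a median of 6.13 to 6.77 (bladder 7) in tumour bladders. Treated bladders were at 6.09, 6.31 and 6.58, metastases at 6.00, 5.86, 5.96 and 6.26, and the palbo metastasis at 5.66, the lowest of the 20. Tumour bladder 7 was the only tumour bladder above all normal bladders, and the other 6 tumour bladders lay at 6.15 or below. Tumour minus normal was -0.188 (-0.497 to 0.120, adjusted p 0.998), and -0.30 without tumour bladder 7, at -0.28 over the 12 arrays and -0.17 over the 8. Metastasis minus normal was -0.287 (-0.640 to 0.066, adjusted p 0.753), with 0 of 4 metastases above the normal mean, at -0.53 over the 12 arrays and -0.09 over the 8.

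Treated bladders had the highest mean of Fgfr2 (6.33 ± 0.24, SD, n = 3), next to normal bladders (6.31 ± 0.18, SD, n = 5), ahead of tumour bladders (6.12 ± 0.33, SD, n = 7) and metastases (6.02 ± 0.17, SD, n = 4). Treated minus tumour was 0.205 (-0.159 to 0.57, adjusted p 1), with 2 of 3 treated arrays above the tumour mean, at 0.08 without treated bladder 3 and 0.14 over the 12 arrays. No neighbouring pair in this order differed by more than the SD of the tumour bladders.

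Fgfr1, the FGF receptor of mesenchymal cells, was at 7.01, 6.83, 7.10, 7.05 and 7.10 in normal bladders, a narrow range. Tumour bladders ran from 6.21 (bladder 1) over a median of 6.82 to 8.21 (bladder 6), the lowest and the highest of all 20 arrays. Treated bladders were at 7.32, 7.17 and 6.86, metastases at 7.45, 8.01, 7.02 and 6.97, and the palbo metastasis at 6.82. Both metastases outside the flat arrays were above every normal and treated bladder, and both flat ones lay among the normal bladders.

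By group mean, Fgfr1 ran from metastasis (7.36 ± 0.48, SD, n = 4) over treated (7.12 ± 0.23, SD, n = 3) and tumour bladder (7.04 ± 0.62, SD, n = 7) to normal bladder (7.02 ± 0.11, SD, n = 5). Metastasis minus tumour was 0.326 (-0.242 to 0.894, adjusted p 0.887), but 0.11 without metastasis 2 and 0.52 without tumour bladder 6. Over the 12 arrays it was 0.64 and over the 8 it was 0.03. Metastasis minus normal was 0.345 (-0.263 to 0.953, adjusted p 0.832), at 0.81 over the 12 arrays and -0.09 over the 8, so its sign was not kept.

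Egfr, the receptor of EGF and TGF-alpha, was at 6.05, 6.08, 6.65, 6.76 and 7.01 in normal bladders, of which the first 2 are the ones outside the flat arrays. Tumour bladders ran from 6.05 (bladder 1) over a median of 6.71 to 8.14 (bladder 6), treated bladders were at 6.80, 6.70 and 6.67, metastases at 6.80, 7.53, 6.50 and 6.54, and the palbo metastasis at 6.48. The normal bladders thus fell into a lower pair and a higher trio that all other groups overlapped, and the 3 treated bladders lay close together, with an SD of 0.073. Tumour minus normal was 0.333 (-0.270 to 0.937, adjusted p 0.998), with 4 of 7 tumour arrays above the normal mean, and 0.12 without tumour bladder 6. Over the 12 arrays it was 0.97 and over the 8 it was -0.21. Metastasis minus normal was 0.336 (-0.356 to 1.027, adjusted p 0.860), at 1.10 over the 12 and -0.28 over the 8. Neither sign was kept, and the 2 normal bladders that make the difference over the 12 are those with high Xist.

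Erbb2, a partner of the other ErbB receptors that has no ligand of its own, was at 5.89, 5.96, 5.85, 5.93 and 6.10 in normal bladders. It ran in tumour bladders from 5.70 (bladder 3) over a median of 5.85 to 6.39 (bladder 7), treated bladders were at 5.90, 5.88 and 6.40, metastases at 5.78, 5.75, 6.10 and 5.90, and the palbo metastasis at 5.58. Tumour bladder 7 and treated bladder 3 stood above all other arrays, and the palbo metastasis stood below them. Treated minus tumour was 0.128 (-0.179 to 0.436, adjusted p 1), turned to -0.04 without treated bladder 3 and was 0.01 over the 12 arrays. Metastasis minus tumour was -0.048 (-0.328 to 0.231, adjusted p 0.967), at -0.28 over the 12 arrays and 0.22 over the 8.

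Erbb3, a neuregulin receptor with little kinase activity of its own, was at 5.90, 5.98, 6.00, 5.81 and 6.05 in normal bladders. Tumour bladders ran from 5.43 (bladder 6) over a median of 5.84 to 6.61 (bladder 7), treated bladders were at 5.89, 5.86 and 6.63, metastases at 6.47, 5.46, 5.75 and 6.16, and the palbo metastasis at 5.43. Metastases 1 and 2 were the highest and the lowest of the 4 metastases. Group means stayed between 5.91 and 6.12 among the 4 groups with replicates, and no pair of groups differed by more than the SD of the tumour bladders (0.43, n = 7). Treated minus tumour was 0.211 (-0.306 to 0.729, adjusted p 1), turned to -0.04 without treated bladder 3 and was 0.17 over the 12 arrays.

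Met, the receptor of hepatocyte growth factor, was at 6.21, 6.03, 5.72, 5.73 and 5.57 in normal bladders. In tumour bladders it ran from 5.63 (bladder 2) over a median of 5.74 to 6.56 (bladder 6), and treated bladders were at 5.82, 5.57 and 6.38. Metastases were at 5.20, 5.29, 5.82 and 5.92 and the palbo metastasis at 5.29. Metastases 1 and 2 and the palbo metastasis were the 3 lowest arrays, below every bladder, while the flat metastases 3 and 4 lay among the bladders.

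Group means of Met were 5.92 ± 0.42 (SD, n = 3) in treated bladders, 5.91 ± 0.34 (SD, n = 7) in those with tumours, 5.85 ± 0.26 (SD, n = 5) in normal ones and 5.56 ± 0.37 (SD, n = 4) in metastases. Metastasis minus tumour was -0.352 (-0.779 to 0.074, adjusted p 0.861), with 1 of 4 metastases above the tumour mean, and -0.23 without metastasis 1. It was -0.76 over the 12 arrays and 0.09 over the 8. Metastasis minus normal was -0.294 (-0.751 to 0.162, adjusted p 0.806), at -0.88 over the 12 and 0.20 over the 8.

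Igf1r, the receptor of Igf1 and Igf2, was at 6.57, 6.39, 5.73, 5.74 and 6.02 in normal bladders. The 7 tumour bladders spanned 5.31 (bladder 2) to 6.31 (bladder 7) with a median of 5.94, and treated bladders were at 6.05, 5.76 and 6.07. Metastases were at 5.398, 5.63, 5.72 and 5.59 and the palbo metastasis at 5.36. The highest metastasis (5.719) lay just below the lowest normal bladder (5.725), both of them flat arrays, and tumour bladders 1 and 2 lay below the lowest metastasis.

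By group mean, Igf1r ran from normal (6.09 ± 0.38, SD, n = 5) over treated (5.96 ± 0.17, SD, n = 3) and tumour bladder (5.88 ± 0.39, SD, n = 7) to metastasis (5.58 ± 0.13, SD, n = 4). Metastasis minus normal was -0.506 (-0.948 to -0.063, adjusted p 0.720), at -0.39 without normal bladder 1, -0.96 over the 12 arrays and -0.18 over the 8. Metastasis minus tumour was -0.296 (-0.709 to 0.118, adjusted p 0.873), with 0 of 4 metastases above the tumour mean, and was -0.31 over the 12 arrays and -0.30 over the 8. Tumour minus normal was -0.210 (-0.596 to 0.176, adjusted p 0.998), at -0.65 over the 12 and 0.12 over the 8.

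Pdgfrb, the PDGF receptor of pericytes and fibroblasts, was at 6.40, 6.22, 6.04, 6.17 and 6.34 in normal bladders. Among tumour bladders it ran from 5.72 (bladder 1) over a median of 6.22 to 7.04 (bladder 6), treated bladders were at 6.30, 6.15 and 5.86, metastases at 6.44, 6.76, 6.36 and 6.00, and the palbo metastasis at 6.55. Metastasis 2, tumour bladder 6 and the palbo metastasis were the 3 highest arrays. Metastasis minus tumour was 0.132 (-0.262 to 0.53, adjusted p 0.931), with 3 of 4 metastases above the tumour mean, and 0.01 without metastasis 2. Over the 12 arrays it was 0.34 and over the 8 it was -0.08. Treated minus tumour was -0.154 (-0.588 to 0.280, adjusted p 1) and -0.02 without tumour bladder 6.

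No receptor passed between treated bladders and either of the other bladder groups. Their largest differences from tumour bladders were those of Erbb3 and Fgfr2 given above, and their largest from normal bladders was 0.213 for Egfr (-0.540 to 0.966, adjusted p 1), with 3 of 3 treated arrays above the normal mean. That Egfr difference ran from 0.098 to 0.338 with 1 array left out and was 0.66 over the 12 arrays, where Igf1r gave -0.51. Treated bladder 3 had the highest level of all 20 arrays for Fgfr3, Erbb2 and Erbb3, 3 of 9 receptors, where 4.04% of genes were highest on that array. Its general epithelial markers (7 of 7 measured; Epcam, Cdh1, Cldn4, Cldn7, Esrp1, Grhl2 and Elf3) averaged 7.05, the highest of the 20, against 5.90 and 5.88 on treated bladders 1 and 2. Its Xist was at 10.05, against 7.10 and 6.04 on those, while its Eif2s3y, at 5.43, lay between theirs (5.21 and 5.57). The part of epithelial content or sex in its receptor levels was not tested. Skeletal muscle markers (4 of 4 measured) were at 9.57 on treated bladder 1 and at 5.499 to 7.26 on the other treated and the tumour bladders, and no receptor had its highest or lowest level on treated bladder 1. No treated bladder is a flat array, while 3 of 7 tumour and 3 of 5 normal bladders are.

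Tumour bladders were the group with the highest SD for 6 of the 9 receptors, and tumour bladders 1, 6 and 7 took most of the ends. Tumour bladder 6 had the highest level of 20 for Fgfr1, Egfr, Met and Pdgfrb, 4 of 9 receptors (9.16% of genes were highest there), and its fibroblast markers averaged 8.88 and its neutrophil markers 10.01, the highest of the 20. Tumour bladder 1 had the lowest level for Fgfr1, Egfr and Pdgfrb, 3 of 9 (13% of genes), and its fibroblast markers (6.30) were the lowest. Tumour bladder 7 was near the top for Fgfr2, Erbb2, Erbb3 and Fgfr3, with the highest luminal urothelial (10.58) and smooth muscle markers (10.29).

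Over the 12 arrays the receptors went together in sets. Among the 36 pairs, 8 passed a two-sided permutation test of Pearson's r (100000 resamples, Benjamini-Hochberg over 108 relations that include those with marker lists). The 12 arrays come from 5 groups and were set apart in part by high correlations of their deviations. These values therefore describe them and are not free of that choice. How many other pairs of genes would pass was not computed. Fgfr2 went with Fgfr3 (r = 0.811, rho = 0.825, adjusted permutation p 0.016 and 0.017) and with Erbb2 (r = 0.823, rho = 0.797, adjusted permutation p 0.0075 and 0.027). Fgfr3 went with Erbb2 (r = 0.723, rho = 0.769, adjusted permutation p 0.028 and 0.034), Erbb2 with Met (r = 0.761, rho = 0.797, 0.02 and 0.023) and Fgfr2 with Igf1r (r = 0.757, rho = 0.776, 0.028 and 0.031). Without the 2 arrays farthest from the median of the first gene, these became 0.754, 0.656, 0.621, 0.792 and 0.765, and over the 8 flat arrays they were 0.238, 0.306, 0.195, -0.324 and -0.009.

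Met and Igf1r gave r = 0.811 and rho = 0.720 (adjusted permutation p 0.014 and 0.052), 0.864 without treated bladder 3 and tumour bladder 6, and -0.528 over the flat arrays. Fgfr1 went with Pdgfrb (r = 0.862, rho = 0.678, adjusted permutation p 0.0063 and 0.07) and with Egfr (r = 0.816, rho = 0.692, 0.012 and 0.061), and without metastasis 2 and tumour bladder 6 these were 0.645 and 0.460, and over the flat arrays 0.311 and 0.681. By rank neither relation passed. Fgfr3 ran against Pdgfrb (r = -0.668, rho = -0.741, adjusted permutation p 0.058 and 0.05), short of the threshold by Pearson's r. Erbb3 passed by Pearson's r with no other receptor, its highest value being 0.702 with Fgfr2 (adjusted permutation p 0.053, and 0.049 for rho = 0.741).

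**Figure D2:**
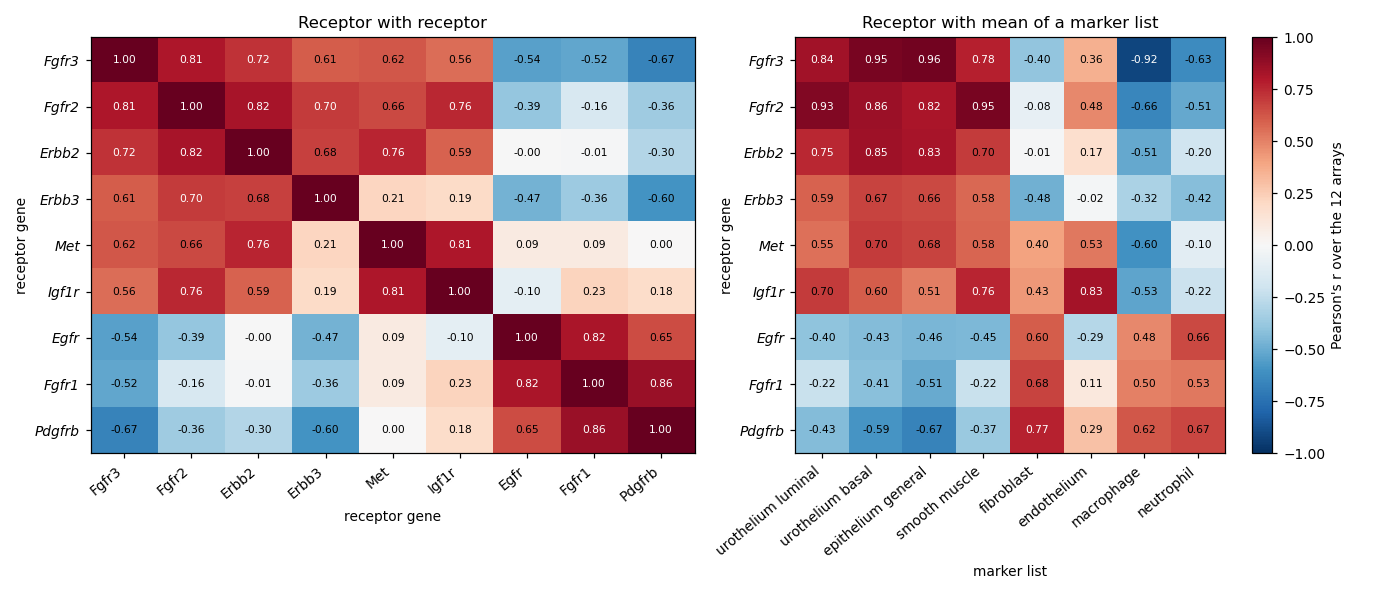
Pearson's r over the 12 arrays between the receptors (left) and between each receptor and the mean of a marker list (right); colour and number give r. Fgfr3, Fgfr2 and Erbb2 share a block of positive values with each other and with the epithelial and smooth muscle lists, and Egfr, Fgfr1 and Pdgfrb a second block with the fibroblast and neutrophil lists, where 1 of the 6 relations passed (Pdgfrb with fibroblast markers).

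The levels of the first set also ran with markers of the cell types in the bladder wall. In such bulk RNA, fewer cells of a type and less RNA per cell cannot be told apart. Fgfr3 went with the mean of the 7 general epithelial markers at r = 0.963 and rho = 0.979 (adjusted permutation p 0.00027 and 0.00054, from a raw p of 1e-05, the smallest these permutations can give), where 0.0564% of 30135 other genes had an r as far from 0. With the basal urothelial markers (5 of 5 measured; Krt5, Krt14, Krt15, Trp63 and Cd44) it gave r = 0.949 and rho = 0.979. Without treated bladder 3 and tumour bladder 7 both were 0.975, and over the flat arrays they were 0.635 and 0.538. Against the 6 macrophage markers (Adgre1, Csf1r, Cd68, C1qa, C1qb and Lyz2) Fgfr3 gave r = -0.916 and rho = -0.881 (adjusted permutation p 0.00027 and 0.0067), -0.866 without metastasis 1 and the palbo metastasis, and 0.029 over the flat arrays. The general epithelial list averaged 6.12 over normal (5.95 to 6.38), 6.09 over tumour (5.68 to 6.85), 6.28 over treated bladders (5.88 to 7.05) and 5.44 over metastases (5.07 to 5.84), and was at 5.16 on the palbo metastasis. Its part in the lower Fgfr3 of metastases was not tested.

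Fgfr2 went with smooth muscle markers (8 of 8 measured; Acta2 and Myh11 among them) at r = 0.947 and rho = 0.902 (adjusted permutation p 0.00027 and 0.0054), 0.904 without normal bladder 1 and tumour bladder 7 and 0.385 over the flat arrays. With luminal urothelial markers (8 of 8) it gave r = 0.928 and rho = 0.930, and -0.572 over the flat arrays. The smooth muscle list averaged 7.82 over normal (6.94 to 9.10), 6.93 over tumour (5.59 to 10.29), 7.84 over treated bladders (6.995 to 8.83) and 6.28 over metastases (5.63 to 6.90), and was at 4.88 on the palbo metastasis, the same order as the group means of Fgfr2. The part of muscle or urothelium in the Fgfr2 levels was not tested. Erbb2 went with basal urothelial markers at r = 0.849 and rho = 0.860 (adjusted permutation p 0.0056 and 0.0085), 0.652 without treated bladder 3 and tumour bladder 7, and -0.081 over the flat arrays.

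Igf1r went with endothelial markers (6 of 6 measured; Pecam1 and Cdh5 among them) at r = 0.833 and rho = 0.727 (adjusted permutation p 0.0089 and 0.052), 0.718 without normal bladders 1 and 2 and 0.851 over the flat arrays. Pdgfrb went with fibroblast markers (8 of 8; Col1a1 and Dcn among them) at r = 0.769 and rho = 0.594 (adjusted permutation p 0.027 and 0.12). Without tumour bladders 1 and 6 that r was 0.292, so it rests on those 2 arrays. Pericyte markers (5 of 5 measured; Rgs5 and Cspg4 among them) were not among the lists related to the receptors. Among tumour bladders they were lowest (5.38) on bladder 6, where Pdgfrb was highest (7.04). They were highest (6.37) on bladder 7, where Pdgfrb was at 6.22. In all, 24 of the 108 relations passed by Pearson's r, 17 by Spearman's rho and 16 by both. For the passing relations with marker lists, 0.0564% (Fgfr3, general epithelial) to 6.05% (Erbb2, smooth muscle) of other genes had an r as far from 0. That share was 0.189% for Igf1r with endothelial markers and 1.92% for Pdgfrb with fibroblast markers.

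**Figure D3:**
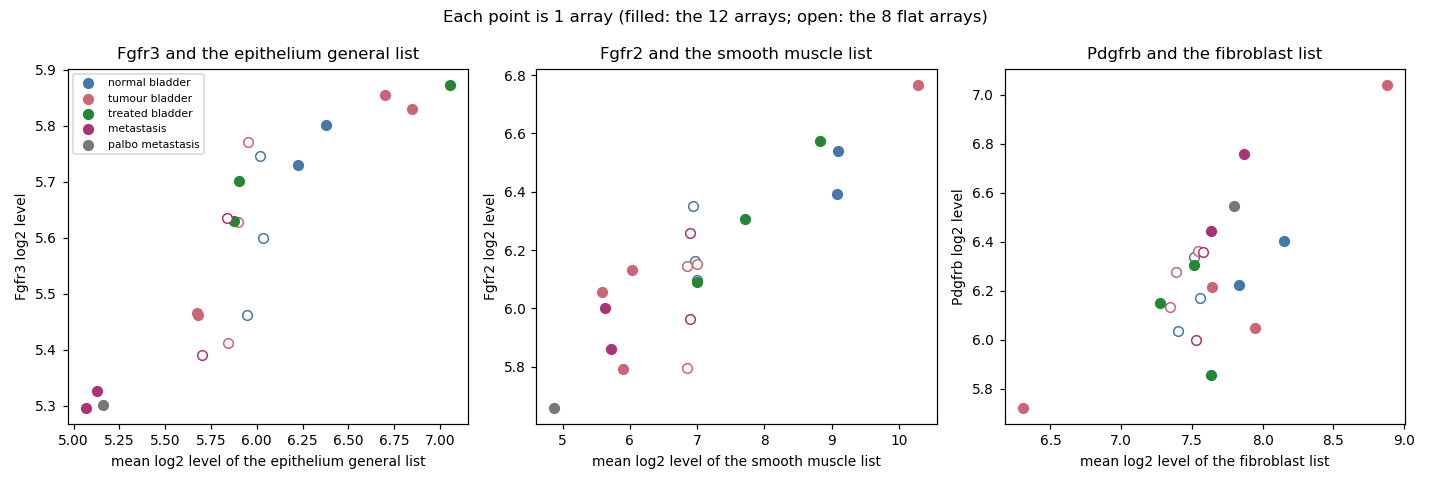
Log2 level of a receptor (y axis) against the mean log2 level of a marker list (x axis), 1 point per array, coloured by group, filled for the 12 arrays and open for the 8 flat arrays. The filled points of Fgfr3 and Fgfr2 climb with their lists (r = 0.963 and 0.947), and those of Pdgfrb do so mainly through tumour bladders 1 and 6.

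The genes most like each receptor over the 20 arrays, among 4900 genes with a mean level of at least 6, are given as a description with Pearson's r. For Fgfr3 they were Cldn4, a claudin of tight junctions (0.927), Wfdc2 (0.882) and Aldh3b2 (0.878), and Cldn4 is itself in the general epithelial list. For Fgfr2 they were Actg2, a smooth muscle actin (0.901) that is in the smooth muscle list, Slc35g1 (0.899) and P2rx1, an ATP receptor of muscle and platelets (0.895). Over the flat arrays these 6 had an r of 0.666 or more. The flat arrays are among the 20 by which the genes were chosen, so that value is no separate check.

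For Fgfr1 the genes most like it were Nid1, a basement membrane protein (0.915), Tgfb3 (0.905) and Med13l (0.883), for Egfr Eps8, an EGFR pathway substrate (0.894), Zzef1 (0.881) and Ubtd2 (0.864), and for Pdgfrb Lrp1 (0.849), Pitpnc1 (0.848) and the mesenchymal filament gene Vim (0.845). For Erbb2 they were Mal2 (0.852), Far1 (0.851) and Decr2 (0.835), and for Erbb3 Etl4 (0.910), Prrg4 (0.903) and Abcd3 (0.866). For Met they were the guidance receptor gene Robo1 (0.882), Col12a1 (0.876) and Nr2f2 (0.867), and for Igf1r Rbms3 (0.916), Fam8a1 (0.902) and the caveolin gene Cav1 (0.896). Likeness over the flat arrays alone was often lost, as for Erbb3 with Etl4 (0.073) and Met with Nr2f2 (-0.510).

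The palbo metastasis, a single array with no replicate check, lay below all 4 metastases for 6 of 9 receptors (Fgfr1, Fgfr2, Egfr, Erbb2, Erbb3 and Igf1r), where 17.1% of all genes did so. It had the lowest level of all 20 arrays for Fgfr2, Erbb2 and Erbb3 (2.51% of genes). For Fgfr3, Met and Pdgfrb it lay within the range of the metastases, and its Pdgfrb was the third highest of the 20. Its luminal urothelial list was at 4.80 against 5.35 to 7.13 on the metastases, its Upk1a at 4.07 and its Acta2 at 4.58, while macrophage markers were at 8.67 (6.60 to 9.03 on metastases) and neutrophil markers at 9.41. The part of this makeup in its receptor levels was not tested.

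Ligands and partners of these receptors were read from lists of their families, and 0 members of any list passed in any of the 5 comparisons. In metastasis against tumour, 0 of 6 genes of hepatocyte growth factor and its activation lay above 0, with a median difference of -0.348 where that over all genes was -0.026. Hgf, the ligand of Met, was at 6.68, 6.42, 6.14, 6.28 and 6.40 in normal bladders, and from 5.82 over 6.39 to 8.58 (bladder 6) in tumour bladders, where Met was highest too. In metastases Hgf was at 5.58, 5.73, 6.05 and 6.25, and on the palbo metastasis at 6.12. Metastasis minus tumour for Hgf was -0.63, and -0.29 without tumour bladder 6. St14, a membrane protease that activates it, gave -0.42 (adjusted p 0.847). Of the list's 6 genes it was the 1 at an unadjusted limma p under 0.05, where 5.79% of all genes were.

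Of 17 FGF ligands, 3 lay above 0 in metastasis against tumour (median -0.147) and 2 in metastasis against normal (median -0.204). Over all genes these medians were -0.026 and -0.013. Fgf1, the FGF ligand of highest mean, was at 5.14, 5.30, 5.64 and 5.43 in metastases and between 5.26 and 5.95 in normal bladders, which overlap. Of 10 EGF family ligands, 4 lay above 0 in metastasis against tumour (median -0.118), and Btc, betacellulin, differed by -0.12. Igf1 differed by -0.004 in that comparison. Igf2 was at 5.19, 5.22, 5.38 and 5.47 in metastases and 5.54 to 5.89 in normal bladders (metastasis minus normal -0.34, adjusted p 0.720). These groups did not overlap for Igf2, which held for 2.85% of all genes. Pdgfc differed from tumour by -0.07 in metastases. Pdgfd, another PDGF ligand chosen after its values were seen, gave -0.95 in metastasis minus normal (adjusted p 0.717), and -0.68 without normal bladder 1. These groups overlapped for Pdgfd, with metastasis 3 at 5.46 and normal bladder 6 at 5.24.

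Adaptors that link the receptors to Ras and PI3K lay mostly above 0 in metastases. Against tumour 12 of 13 did so (median 0.206, over all genes -0.026), and against normal 11 of 13 (median 0.169, over all genes -0.013). The share of all genes above 0 was not computed for this or the other lists, so such counts are a description only. Grb2, the adaptor of the Ras exchange factor Sos, was at 7.39, 7.38, 7.13 and 7.03 in metastases and 6.98, 6.82, 6.98, 6.92 and 7.09 in normal bladders, and overlapped (0.28, adjusted p 0.720). Gab2, a docking protein chosen after its values were seen, had the smallest p of the adaptors, at 6.80 ± 0.21 (SD, n = 4) in metastases and 6.17 ± 0.26 (SD, n = 7) in tumour bladders (0.63, limma adjusted p 0.841). Irs2, the docking protein of the insulin and IGF receptors, differed by 0.06. The macrophage markers averaged 7.64 over metastases and 6.73 over tumour bladders, and their part in these adaptor levels was not tested.

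Feedback inhibitors (20 genes), of which MAPK signalling induces only some, had a median of 0.041 in tumour against normal with 13 above 0. In metastasis against normal their median was 0.074 with 12 above 0. The medians over all genes were 0.012 and -0.013. Spry4 and Errfi1, the latter an inhibitor of Egfr, were higher in tumour than normal bladders (0.24 and 0.49, adjusted p 0.998). Both had an unadjusted limma p under 0.05, where 4.25% of all genes did, and Spry2 gave 0.33 (0.15 without normal bladder 5). Spry4 and Dusp6, a phosphatase of ERK, were higher in metastasis against normal (0.29 and 0.73, adjusted p 0.720), with Dusp6 at 0.42 without metastasis 1. Both had an unadjusted limma p under 0.05 there, where 6.91% of all genes did. Cbl, the ubiquitin ligase that sends active receptors to degradation, ranged from 5.38 (tumour bladder 1) to 12.07 (treated bladder 3), and its metastasis minus tumour was 1.57, and 0.96 without tumour bladder 1. Response genes (15 measured) had medians of 0.117 in tumour against normal and -0.019 in metastasis against tumour, with Myc at 0.07 and -0.02. Jun and Ier3 were higher in tumour than normal bladders at an unadjusted limma p under 0.05 (0.42 and 0.41; 4.25% of genes were under it). Ier3, at low levels, did not overlap there (4.66 to 5.53 against 4.49 to 4.63; 0.166% of genes). Egr2 and Ier3 were higher in metastasis against normal (0.26 and 0.41; 6.91%). None passed after adjustment.

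Of 44 other receptor tyrosine kinases, 17 lay above 0 in metastasis against tumour (median -0.046, over all genes -0.026). The 9 receptors described here had 4 above 0. Csf1r and Mertk, receptors of macrophages, gave 0.54 and 0.70 there (0.34 without metastasis 1 and 0.39 without metastasis 2) and were at 7.28 and 7.15 on metastasis 1, 6.99 and 7.66 on metastasis 2, 6.43 and 6.05 on metastasis 3 and 6.01 and 6.00 on metastasis 4. Both were thus higher on the metastases outside the flat arrays, as were the macrophage markers, a list that holds Csf1r itself. Tek, the angiopoietin receptor of endothelium, gave -0.40 in tumour and -0.49 in metastasis against normal, from 6.95 and 6.46 on normal bladders 1 and 2. Without normal bladder 1 these differences were -0.24 and -0.33. Ryk and Ddr2, the other receptor kinases of highest mean, differed by -0.06 and -0.12 in metastasis against tumour. Coreceptor Sdc4, a syndecan, was at 7.63, 6.75, 6.36 and 6.67 in metastases and 5.75 to 6.81 in tumour bladders (0.68, adjusted p 0.841, and 0.42 without metastasis 1), which overlap, and Flrt2 differed by 0.14. Of the IGF binding proteins, 7 of 8 lay above 0 in tumour against normal (median 0.162), with Igfbp4 at 0.34 (0.18 without tumour bladder 6) and Igfbp7 at -0.17 (0.085 without normal bladder 1). None of these genes passed.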

How the data were processed

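RNA of 20 samples, extracted per the labels' protocols by an FFPE kit, was measured on Affymetrix whole-transcript arrays. The deposited values, used as given, come from RMA and Affymetrix Expression Console, per the submitters' processing notes. No source used here states their log base; the authors' log2 scale is assumed, as RMA output has it. Of 65956 rows, the 30604 with exactly 1 gene symbol gave 30142 genes (of several rows, the one with the highest mean over all arrays). Values ran from 2.16 to 22.0. For arrays, their number limits the precision.

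In limma 3.58.1 (R 4.3.3), 1 linear model with 5 groups gave two-sided tests for all genes, adjusted by Benjamini-Hochberg over all of them, with a threshold of 0.05. Every adjusted p in the text that is not called a permutation p comes from this model, except where another fit is named beside it. The members, lists and tests were chosen with earlier results of these data known. Genes named are the receptors, the ligand of highest mean per receptor family, the 2 genes of highest mean in the other lists and, per receptor, the 3 most like it; others are said to be chosen after their values were seen, or are those at an unadjusted p under 0.05. The flat arrays had an SD above 0.3 in rows with a mean of 4.5 to 5 and no correlation of 0.25 or more with another array over the 5317 rows whose mean reached 7. The procedure was tested on simulated data.

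Alternatives were a fit on the 2 groups alone, weights per array, a variance prior that was trended and robust, dim genes left out (19904 kept at a level of at least 5.10), renewed quantile normalisation, centring on array medians, the mean of a gene's rows, a replicate block, the palbo metastasis joined to the metastases, and the omission of each array. Added after seeing the data were the 12 arrays alone, the 8 flat arrays alone, a term for them, and the omission of each array in the differences of the pathway genes (group means, no test).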

Additional observations from a re-analysis of the deposited data

Results flagged for a closer look

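Of 27 combinations of a receptor and a group of 4 or more arrays, 1 held an array far from the rest: Fgfr2 on tumour bladder 7, at 6.767, where the other 6 tumour bladders lay between 5.794 and 6.151. The gap to its nearest neighbour was 0.632 of the group's range, above Dixon's 95% critical value for 7 samples. Chance alone gives about 1 in 20 such groups. The same array had smooth muscle markers at 10.29 and luminal urothelial markers at 10.58, the highest of the 20 arrays for both lists, and their part in this value was not tested.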

How the results depend on the processing

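No receptor passed in any comparison under any alternative run. Of the receptors' differences, 378 values under other models, filters and normalisations moved by less than the spread between replicates, with 22 changes of sign. The same held for 450 values with 1 array left out, with 50 changes of sign. Leaving out 1 array can hardly move a difference by that spread, so this count was nearly fixed in advance and does not show stability. Of 117 values from the sets of 12 and 8 arrays and the term for the flat arrays, 18 moved by more, in 6 receptors, and 28 changed sign; the cause was not tested. Counts of genes called moved from 0 in 3 cases. Over the 12 arrays, 3 genes passed in metastasis against tumour (smallest adjusted p by limma 0.00178) and 3 in metastasis against normal (0.00305), in both Ahsg, Ctsk and Lyz1. In the fit on only the 2 groups, 1 gene passed in metastasis against normal, Gm3534 (adjusted p 0.0125). None of these is a receptor.

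With the replicate number as a replicate block, 0 genes and 0 receptors passed in every comparison; tumour minus normal for Fgfr2 was then -0.32 (adjusted p by limma 0.811). Deviations of 20 pairs of arrays with the same number in different groups correlated from -0.583 to 0.520 (median -0.0885, 4 above 0.1). The 111 pairs with different numbers had a median of 0.01. Flat arrays resemble no other array by the way they were chosen. These values therefore cannot show whether arrays with the same number share an animal.

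The number of arrays limits what can be shown. The ends of the receptors' 95% intervals lay between -0.948 (Igf1r) and 1.027 (Egfr), both in metastasis against normal. A difference whose own interval holds 0 cannot be told from 0. Only Fgfr3 and Igf1r in metastasis against normal had intervals without 0, and neither passed after adjustment.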
